A study of Homo sapiens with 12 samples.

Results

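The ATP-binding cassette (ABC) transporter genes were taken as every symbol of the deposited count table that consists of ABC, a subfamily letter from A to G and a number. The rule found 46 of the 56609 symbols in the table. They comprised 12 genes of subfamily A, 9 of B, 12 of C, 4 of D, 1 of E, 3 of F and 5 of G. Members of the superfamily with other symbols (TAP1, TAP2 and CFTR) fall outside the rule and are given separately.

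ABC transporters are membrane proteins that use the energy of ATP binding and hydrolysis to move lipids, bile salts, peptides, metals, nucleotides and drugs across membranes. Subfamilies A and G are best known for moving cholesterol and phospholipids, B and C for drug efflux and organic anions, and D for carrying fatty acids into peroxisomes. Subfamilies E and F have the nucleotide-binding domains without a membrane part and act in ribosome recycling and translation. In melanoma the family is studied mostly for drug efflux, with ABCB5 as a marker of some melanoma cell populations.

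RNA was sequenced from A375, an established human melanoma cell line, in 12 libraries. There were 4 groups of 3 libraries. The wild-type DMSO group was unedited A375 given DMSO, the solvent, for 48 h, and the wild-type JQ1 group was the same line given 500 nM JQ1 for 48 h. The knockout DMSO and knockout JQ1 groups were A375 in which MAPKAPK2 had been disrupted with CRISPR/Cas9, treated in the same 2 ways. The titles of the control libraries call them untreated while their treatment field says DMSO, which is followed here. JQ1 blocks the acetyl-lysine pockets of the BET bromodomain proteins, and MAPKAPK2 encodes MK2, a kinase downstream of p38. Each treatment asks what JQ1 does to these genes, and the genotypes ask whether losing MK2, which the study links to resistance to such inhibitors, changes their levels or their response. The labels do not say whether the knockout line is 1 clone or a pool, nor whether the replicates were separate cultures, so p-values measure the spread between these libraries, which may be technical.

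Libraries held 25316565 to 34594025 counts. MAPKAPK2 itself, measured as counts per 1000000 counts (CPM), lay at 87.9 to 92.1 in wild-type DMSO and 112 to 120 in wild-type JQ1, against 11.1 to 13.2 in knockout DMSO and 12.6 to 15.7 in knockout JQ1. Knockout libraries were thus lower in every case, although the transcript was not at 0. The third knockout JQ1 library stood apart: 4 abundant RNA polymerase III transcripts (RN7SK, RN7SL1, RN7SL2 and RMRP) took 14.6% of its counts, against 9.42% to 12.3% in the other 11. Calls of named ABC genes, TAP1 and TAP2 that were lost without it are stated beside them. Of 12 melanocyte and melanoma markers, 7 averaged over 1 CPM, led by SOX10, AXL and NES, and the pigment cell genes PMEL, MLANA, TYR, TYRP1 and DCT lay near or under 1 CPM. The summed keratinocyte, leukocyte and endothelial markers stayed under 4 CPM in every library. The summed fibroblast markers were higher, at 15.8 to 17.4 CPM in wild-type DMSO, and are described below. In bulk RNA, fewer cells of a type and less RNA per cell cannot be told apart.

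Most members were expressed, across a wide range. In wild-type DMSO, 13 of the 46 reached 5 CPM per kilobase of their longest transcript, 20 lay between 0.1 and 5, and 13 lay under 0.1. ABCE1, which splits ribosomes after termination, headed this order of levels at 19.5 ± 1.24 CPM per kilobase (SD, n = 3). ABCF2 followed at 18.9 ± 0.50, and the replicates of this pair overlapped. ABCF1, which acts in translation initiation, came next at 15.9 ± 0.20 CPM per kilobase. ABCC4, an exporter of cyclic nucleotides and prostaglandins, lay at 14.4 ± 0.76, overlapping the mitochondrial ABCB10 at 14.1 ± 0.05. Neighbours in the order overlapped in 21 of 40 pairs. The order depends on the length used: with the median transcript length, ABCF2 led at 65.1 CPM per kilobase and ABCD3 stood next at 51.9, ahead of ABCE1 at 32.4.

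The drug efflux genes differed widely in level. Per kilobase, ABCC1 (MRP1, an exporter of glutathione conjugates) lay at 6.93 ± 0.35 CPM in wild-type DMSO and ABCB1 (P-glycoprotein) at 1.89 ± 0.01. ABCG2 (breast cancer resistance protein) was lower again at 0.783 ± 0.046 CPM per kilobase. ABCB5 lay at 0.0631 ± 0.0104, rank 36 of the 46. Expression was too low for testing in 8 members. ABCB11 (the bile salt export pump) and ABCC8 (the sulfonylurea receptor of pancreatic beta cells) had 0 counts in all 12 libraries. ABCA4, ABCC12, ABCC13, ABCG5, ABCG8 and ABCC11 had summed counts of 2, 1, 1, 16, 9 and 37 over the 12 libraries. The other 38 members passed the filter on low counts, and all counts of tested members below refer to these 38.

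JQ1 changed a majority of the tested ABC genes, in both directions. In wild-type cells 13 members rose and 9 fell, 22 of 38 or 57.9%, where 33.1% of all 21698 genes tested passed the same threshold (edgeR's quasi-likelihood test, Benjamini-Hochberg adjusted p under 0.05 over all genes). Abundant genes pass such a test more often. At 5 CPM or more, averaged over all 12 libraries, 16 of 22 members (72.7%) and 46.4% of all genes were called. The median log2 fold change of the members was -0.0036, beside -0.034 over all genes, because rises and falls balanced. Their median absolute change was 0.48 on the log2 scale, beside 0.29 over all genes, and 9 members moved by more than 2-fold.

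Knockout cells responded with the same genes. There 15 members rose and 10 fell, 25 of 38 or 65.8%, against 34.4% of all genes tested, and 18 of the 22 members at 5 CPM or more (81.8%) against 49.1%. All 22 members called in wild type were also called in knockout, each in the same direction. They made up 100% of the wild-type calls and 88% of the knockout calls, and these comparisons share no library. ABCA8 among them passed the filter on low counts only through wild-type DMSO. The matching share over all genes was not computed. Only 0.134% of all genes tested passed the interaction test, so the overlap is not shown to be particular to ABC genes. The 3 other knockout calls, ABCC5, ABCC9 and ABCG1, were made in knockout alone. Their responses did not differ between the genotypes by the interaction test (adjusted p of 0.90, 0.98 and 0.71 by edgeR). Without the third knockout JQ1 library, 21 members were called in knockout, 19 of them shared with the full set. Scaling by library totals in place of TMM, which moved the median of all genes by -0.13 in wild type and -0.12 in knockout, gave 12 rises and 10 falls in wild type, and 11 and 11 in knockout.

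**Figure D1:**
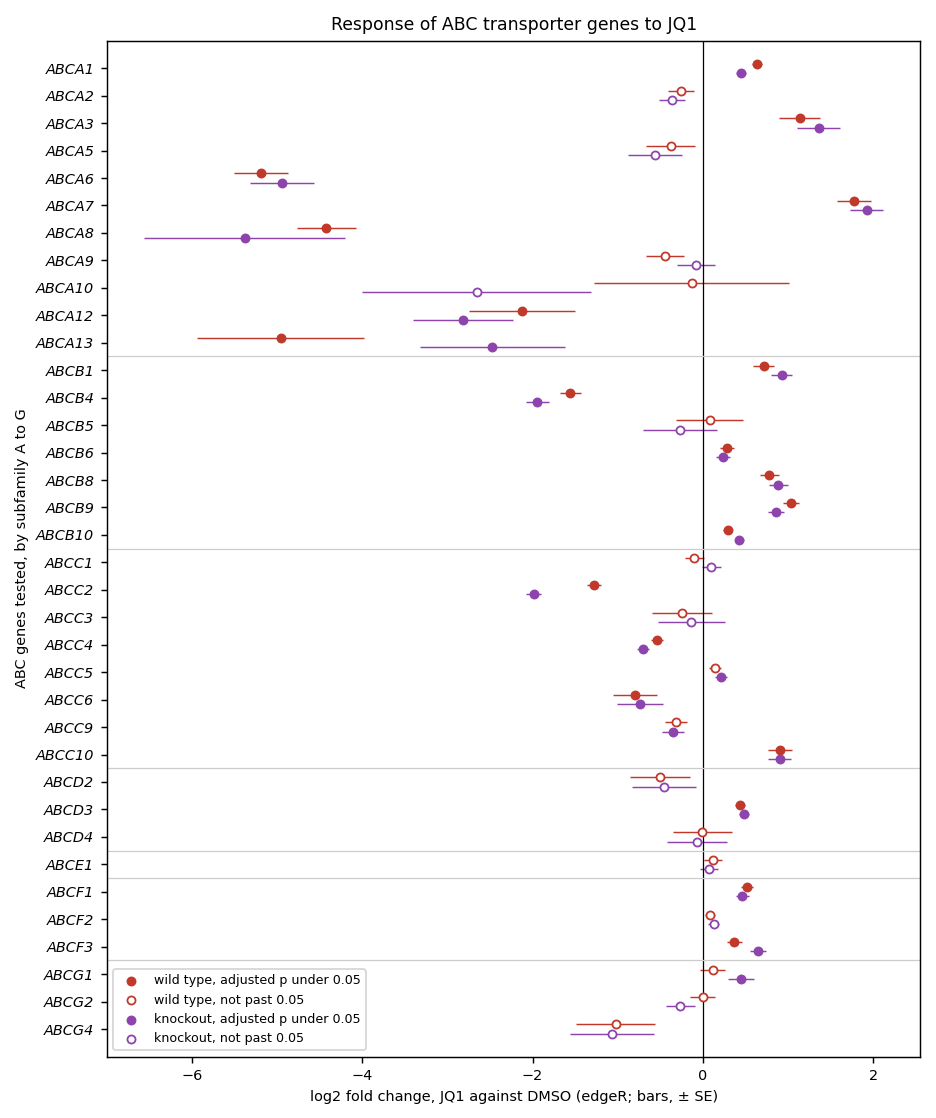
Log2 fold change with JQ1 against DMSO (x axis, edgeR, bars ± SE) for 36 of the 38 tested ABC genes, ordered by subfamily from A at the top to G. Red points are wild-type cells and purple points knockout cells; filled points passed an adjusted p of 0.05. The subfamily A genes ABCA6, ABCA8 and ABCA13 lie farthest to the left and ABCA7 farthest to the right; the purple ABCA8 value rests on 0 counts in knockout JQ1 and is no measure of size.

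Of the 3 widest falls in wild type, those of ABCA6 and ABCA8 lay in a single stretch of chromosome 17. ABCA8, ABCA9, ABCA6, ABCA10 and ABCA5 lie in that order on the minus strand at chr17:68867292-69327244 (GRCh38, GENCODE 29), a stretch of 460.0 kb. Their proteins are close relatives of the ABCA lipid transporters, ABCA8 having been linked to cholesterol export and ABCA5 to lysosomal lipids, while the cargo of the others is less well known. The stretches before the start sites of ABCA6, ABCA9 and ABCA5 are printed because ABCA6 fell with JQ1 while ABCA9 and ABCA5 passed no test. Each runs 5′ to 3′ on the gene's strand up to the RefSeq start or, where GENCODE marks an earlier exon, up to that exon. Capitals mark a match to an E-box in ABCA9 and to a CCAAT box, read on the opposite strand, in ABCA6; the ABCA5 stretch holds no match to these or to a TATA box. RefSeq's GRCh38.p14 places them at chr17:69141896-69142145 for ABCA6, chr17:69061065-69061177 for ABCA9 and chr17:69327245-69327383 for ABCA5. The sequences, all from the minus strand, are as follows.
ABCA6: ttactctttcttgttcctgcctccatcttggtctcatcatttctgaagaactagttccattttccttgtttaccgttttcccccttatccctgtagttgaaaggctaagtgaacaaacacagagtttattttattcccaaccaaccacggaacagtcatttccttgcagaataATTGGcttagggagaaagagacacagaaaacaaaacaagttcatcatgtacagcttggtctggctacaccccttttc
ABCA9: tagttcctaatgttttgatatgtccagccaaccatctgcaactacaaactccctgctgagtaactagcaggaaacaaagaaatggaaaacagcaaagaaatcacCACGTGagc
ABCA5: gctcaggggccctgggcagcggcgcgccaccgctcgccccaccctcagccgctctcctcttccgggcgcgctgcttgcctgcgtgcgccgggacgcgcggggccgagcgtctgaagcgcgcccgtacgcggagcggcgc

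The ABCA5 stretch is rich in G and C (79.9%, with 24 CpG pairs), whereas those of ABCA6 and ABCA9 are poor (40.8% with 2 CpG pairs and 41.6% with 1). The full ABCA10 window is not printed because it overlaps an exon of ABCA5.

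ABCA6 fell to a few counts with JQ1. It measured 5.90, 5.21 and 4.62 CPM in wild-type DMSO and 0.188, 0.0371 and 0.177 in wild-type JQ1, so every treated library lay far under every control. The fall was 36.4-fold (log2 -5.19 ± 0.32 SE, edgeR adjusted p = 2.35e-08). In knockout cells it went from 3.05, 3.12 and 2.00 CPM to 0.0381, 0.122 and 0.095 CPM. This fall was 30.7-fold (log2 -4.94 ± 0.38, edgeR adjusted p = 1.71e-07), and again the groups did not overlap.

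ABCA8 followed the same course from a lower base in the knockout. Its levels in wild type were 3.73, 4.57 and 3.08 CPM in DMSO and 0.0942, 0.111 and 0.296 CPM in JQ1. The wild-type fall was 21.5-fold (log2 -4.43 ± 0.35, edgeR adjusted p = 1.01e-06). In knockout DMSO it measured only 0.224, 0.172 and 0.105 CPM. No count was seen in any knockout JQ1 library, which over the 3 together allows a level up to 0.0364 CPM. Against that floor of 3 counts over the group, ABCA8 was at least 4.65-fold lower with JQ1 in knockout cells (15 counts against 0; edgeR adjusted p = 0.0034). ABCA8 passed the filter on low counts only through the wild-type DMSO libraries, which are the high group of the wild-type comparison. That it was tested at all is thus no support for either fall. ABCA8 was filtered out when the knockout groups were fitted alone.

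ABCA9, ABCA10 and ABCA5 passed no test with JQ1 in the main analysis. ABCA9 lay at 3.25, 2.83 and 2.28 CPM in wild-type DMSO and 2.01, 1.41 and 2.66 in wild-type JQ1, overlapping groups (log2 -0.44 ± 0.22, edgeR adjusted p = 0.14). ABCA5 lay at 5.75, 6.23 and 6.27 CPM in wild-type DMSO and 3.14, 3.82 and 7.01 in JQ1. The third JQ1 library of wild type was thus above all controls and the others below them (log2 -0.38 ± 0.29, edgeR adjusted p = 0.35). Without it, edgeR called both ABCA5 (log2 -0.81, adjusted p = 0.039) and ABCA9 (log2 -0.69, adjusted p = 0.038) as lower in wild type. In knockout cells ABCA5 was called without the first JQ1 library (log2 -1.05, edgeR adjusted p = 0.014) and without a filter on low counts (adjusted p = 0.027), as was ABCA10 without the filter (log2 -2.66, adjusted p = 5.91e-05). ABCA10 varied within groups by more than between them, for example 2.28, 0.996 and 0 CPM in knockout DMSO. The ABCA10 and ABCA5 genes overlap by 535 bases on the same strand, and how reads were shared between them was not tested.

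**Figure D2:**
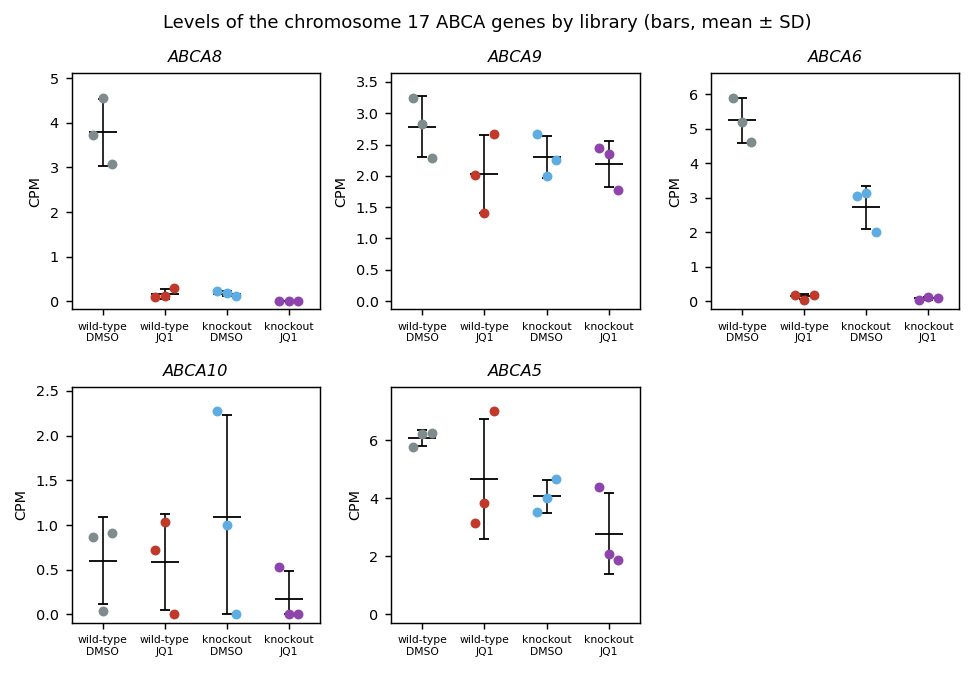
CPM of the 5 chromosome 17 ABCA genes in each library (points), with group means and SD (bars), in their order along the chromosome. ABCA8 is high in wild-type DMSO alone, ABCA6 is high in both DMSO groups, and the treated and control libraries of ABCA9 and ABCA10 overlap in both genotypes. The ABCA5 libraries of knockout DMSO lie under those of wild-type DMSO.

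The genes around this stretch changed by less than ABCA6 and ABCA8. Of 10 neighbours listed, 8 were tested: 5 fell and 0 rose with JQ1 in wild type (62.5%), and 6 fell in knockout (75%), beside 16.2% and 17.8% of all genes called lower. On the proximal side PRKAR1A (a regulatory subunit of protein kinase A) fell by 0.60 on the log2 scale in wild type and by 0.52 in knockout (edgeR adjusted p = 2.17e-06 and 7.2e-06). ARSG, an arylsulfatase gene, fell by 0.77 and 0.61. FAM20A fell by 1.14 and 0.89. On the distal side KCNJ2 (a potassium channel gene) fell by 0.84 and 0.72, while MAP2K6, the nearest tested neighbour, gave 0.25 and -0.16 without passing the test. In wild type the 8 neighbours thus lay between -1.14 and 0.25, against -5.19 and -4.43 for ABCA6 and ABCA8. The 5 ABCA genes had a median log2 change of -0.44 with JQ1 in wild type, beside -0.034 over all genes. The median of the 8 neighbours was lower, at -0.69. By this median the stretch did not fall by more than its surroundings in wild type. The summed level of the 5 ABCA genes in wild-type JQ1 was nonetheless 0.409 times that in DMSO. In knockout the median of the 5 ABCA genes was -2.66, beside -0.52 for the 8 neighbours. The former was the value of ABCA10, which passed no test and moved between -8.08 and -1.51 when single libraries were left out. With ABCA8 at its bound the knockout median of the 5 ABCA genes was -2.22.

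**Figure D3:**
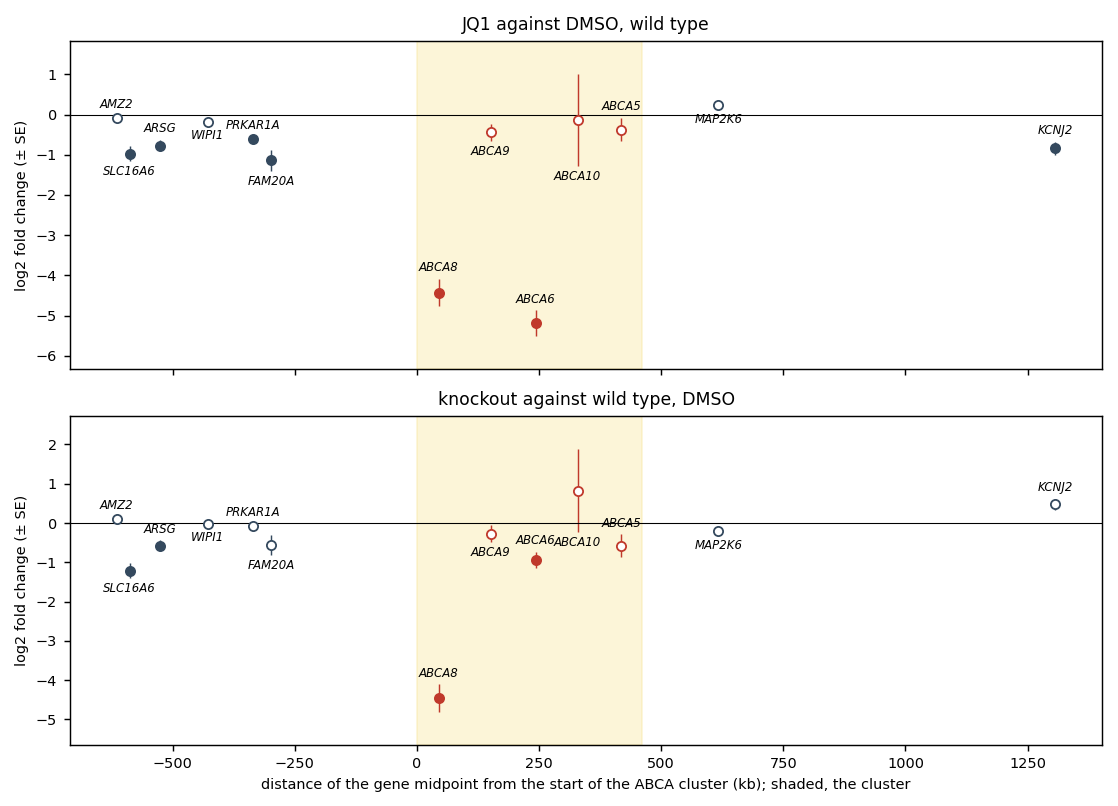
Log2 fold change (y axis, edgeR, bars ± SE) of the tested genes around the ABCA stretch against the distance of each gene's midpoint from its start in kb (x axis); the shaded band is the stretch of 460.0 kb. Red points are the 5 ABCA genes and dark points their neighbours, filled where the adjusted p was under 0.05. With JQ1 in wild type (top) ABCA8 and ABCA6 lie under -4, and in the knockout without drug (bottom) ABCA8 alone does.

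Among the other lipid transporters of subfamily A, rises and falls stood side by side. ABCA7, which moves phospholipids and is active in phagocytosis, rose from 1.94, 2.90 and 2.01 CPM to 8.17, 8.54 and 6.63 CPM in wild type. All treated libraries lay above all controls, a 3.43-fold rise (log2 1.78 ± 0.20, edgeR adjusted p = 7.49e-06). In knockout cells the rise was 3.79-fold (log2 1.92 ± 0.20). ABCA3, the phospholipid transporter of lung lamellar bodies, rose 2.20-fold in wild type (log2 1.14 ± 0.24, edgeR adjusted p = 0.0023) and 2.57-fold in knockout. ABCA1, which hands cholesterol to apolipoprotein A-I, rose from 43.0 to 44.8 CPM in the controls to 67.1 to 69.0 CPM in wild-type JQ1 (log2 0.63 ± 0.06, edgeR adjusted p = 1.2e-06).

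The stretch before the ABCA7 start is printed beside that of the chromosome 17 genes because ABCA7 gave the widest rise of the family in both genotypes. It lies at chr19:1039857-1040100 on the plus strand (RefSeq, GRCh38.p14), is 69.7% G and C with 23 CpG pairs, and holds a single CCAAT box, in capitals.
ABCA7: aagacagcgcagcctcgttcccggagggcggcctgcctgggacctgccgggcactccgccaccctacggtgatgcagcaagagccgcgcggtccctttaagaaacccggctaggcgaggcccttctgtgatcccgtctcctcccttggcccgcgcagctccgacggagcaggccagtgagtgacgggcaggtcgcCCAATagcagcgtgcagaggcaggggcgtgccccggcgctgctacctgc

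ABCA12 and ABCA13 fell from low levels. ABCA12, the ceramide transporter of skin, lay at 0.447, 0.567 and 0.302 CPM in wild-type DMSO and 0.126, 0 and 0.148 in JQ1 (log2 -2.12 ± 0.63, edgeR adjusted p = 0.017). In knockout it fell from 0.673, 0.721 and 1.02 CPM to 0.0381, 0.243 and 0.0633 CPM. ABCA13 had 79 counts over the wild-type DMSO libraries and 2 over the JQ1 libraries, a ratio of 37.3 (95% counting interval 9.98 to 313). With so few counts under JQ1, ABCA13 passed the filter on low counts only through DMSO libraries, the high side of the JQ1 comparisons. Its fall passed the test in knockout as well (edgeR adjusted p = 0.035), but there the libraries overlapped, and without the third knockout JQ1 library it was not called.

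The classical drug efflux genes did not move as a group. ABCB1 rose from between 8.96 and 9.07 CPM to 14.5, 15.3 and 14.5 CPM with JQ1 in wild type. The replicates were tight and well apart (1.64-fold, log2 0.71 ± 0.12, edgeR adjusted p = 0.00033). In knockout cells ABCB1 rose from 5.93, 5.42 and 5.72 CPM to 13.1, 10.7 and 8.71 CPM, a 1.90-fold rise with a much wider spread among treated libraries (log2 0.92 ± 0.13, edgeR adjusted p = 4.97e-05). ABCC1 passed no test in either genotype (log2 -0.10 ± 0.11 in wild type and 0.10 ± 0.11 in knockout). ABCG2 likewise showed no detectable JQ1 response (log2 -0.0025 ± 0.15 and -0.27 ± 0.17, with overlapping libraries), and ABCB5 stayed near 0.3 CPM (log2 0.08 ± 0.39 and -0.27 ± 0.43).

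ABCB4, which flips phosphatidylcholine into bile, lies next to ABCB1 and went the opposite way. The pair sits on the minus strand of chromosome 7, ABCB4 at chr7:87401697-87480435 and ABCB1 at chr7:87503633-87713323, 23198 bases apart. ABCB4 measured 11.7, 11.3 and 11.9 CPM in wild-type DMSO and 3.55, 4.86 and 3.52 CPM in JQ1. This was a 2.94-fold fall without overlap (log2 -1.55 ± 0.13, edgeR adjusted p = 3.97e-07). In knockout it fell 3.84-fold (log2 -1.94 ± 0.13). Within this pair ABCB4 thus fell while ABCB1 rose, in both genotypes.

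Subfamily C, the multidrug resistance proteins and their relatives, was the only subfamily whose summed level lay lower with JQ1 in both genotypes, although with library totals the single gene of E did so too (ratios of 0.992 and 0.972). ABCC2 (MRP2), which exports conjugated bilirubin and drugs at the apical membrane, is described with its genotype difference below. ABCC4 (MRP4) fell from 84.0, 80.1 and 89.0 CPM to 56.4, 58.7 and 59.3 CPM in wild type, with no overlap (1.45-fold, log2 -0.54 ± 0.07, edgeR adjusted p = 1.96e-05). In knockout it fell 1.63-fold (log2 -0.70 ± 0.07). ABCC6, known from the mineralisation disorder pseudoxanthoma elasticum, fell in both genotypes (log2 -0.80 ± 0.26 and -0.74 ± 0.27, edgeR adjusted p = 0.029 and 0.045). The knockout call was lost under 14 of 22 alternatives, among them DESeq2, the replicate block and the omission of any 1 of the 6 knockout libraries. The value became log2 -2.22 with the authors' gene and library factors, and reads of the pseudogenes ABCC6P1 and ABCC6P2 may be split with ABCC6. ABCC10 (MRP7) rose from 8.85, 8.82 and 9.54 CPM to 17.7, 18.0 and 15.4 CPM in wild type (1.87-fold, log2 0.91 ± 0.14, edgeR adjusted p = 0.00016) and 1.87-fold in knockout. ABCC5 and ABCC9 gave log2 values of 0.36 or less in size, the knockout call of ABCC9 being lost without the third knockout JQ1 library, and ABCC3 passed no test (log2 -0.25 ± 0.35 and -0.13 ± 0.39).

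Several organelle transporters of subfamily B rose. ABCB8, a mitochondrial transporter linked to iron export, rose from 17.3, 17.8 and 16.6 CPM to 32.1, 28.9 and 28.1 CPM in wild type (1.72-fold, log2 0.78 ± 0.11, edgeR adjusted p = 7.28e-05) and 1.85-fold in knockout. ABCB9, a lysosomal peptide transporter, rose 2.05-fold in wild type (log2 1.03 ± 0.10, edgeR adjusted p = 1.61e-06) and 1.81-fold in knockout. ABCB10, which acts in mitochondrial haem synthesis, rose 1.23-fold and 1.35-fold, and ABCB6, a porphyrin transporter, 1.22-fold and 1.18-fold. Each of these 4 rises passed the test in both genotypes; the ABCB6 call in knockout was lost without the third knockout JQ1 library.

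In subfamily D, ABCD3 rose, and ABCD2 and ABCD4 passed no test. ABCD3 went from 45.2 to 46.6 CPM in wild-type DMSO to 59.3 to 65.1 CPM in JQ1 (log2 0.44 ± 0.06, edgeR adjusted p = 7.64e-05). Among the translation factors, ABCF1 rose 1.43-fold and 1.38-fold. ABCF3 rose 1.29-fold and 1.57-fold, whereas ABCF2 and ABCE1 gave log2 changes between 0.07 and 0.13 that passed no test. In subfamily G, ABCG1, which passes cholesterol to lipoproteins, gave log2 0.12 ± 0.15 in wild type. It rose in knockout (log2 0.45 ± 0.15, edgeR adjusted p = 0.031). That call was lost under 8 of 22 alternatives, among them library totals, DESeq2, no filter and only the groups compared. Leaving out the second or the third knockout JQ1 library or the first knockout DMSO library also lost it. ABCG4 lay under 0.6 CPM in every library and passed no test.

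Summed over all members, tested or not, the family barely moved while its parts diverged; these sums are descriptions without a test. All 46 genes together gave 806 ± 6.17 CPM in wild-type DMSO and 865 ± 27.6 CPM in wild-type JQ1, a ratio of 1.07, and 1.06 in knockout. Subfamily D showed the largest ratio of the subfamilies, 1.40 in wild type and 1.36 in knockout. Subfamily F followed with 1.24 and 1.28, and subfamily B with 1.16 and 1.13. Subfamily C had ratios of 0.799 and 0.794, from 229 ± 6.95 CPM to 183 ± 7.85 CPM in wild type. Ratios for A (1.09 and 1.05), E (1.09 and 1.05) and G (0.992 and 1.09) lay near 1, and with library totals A gave 1.00 and 0.971. The 5 chromosome 17 genes together gave 0.409 and 0.504. A sum follows its most abundant genes, so A follows ABCA1 and ABCA2, and C follows ABCC4, ABCC1 and ABCC2.

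**Figure D4:**
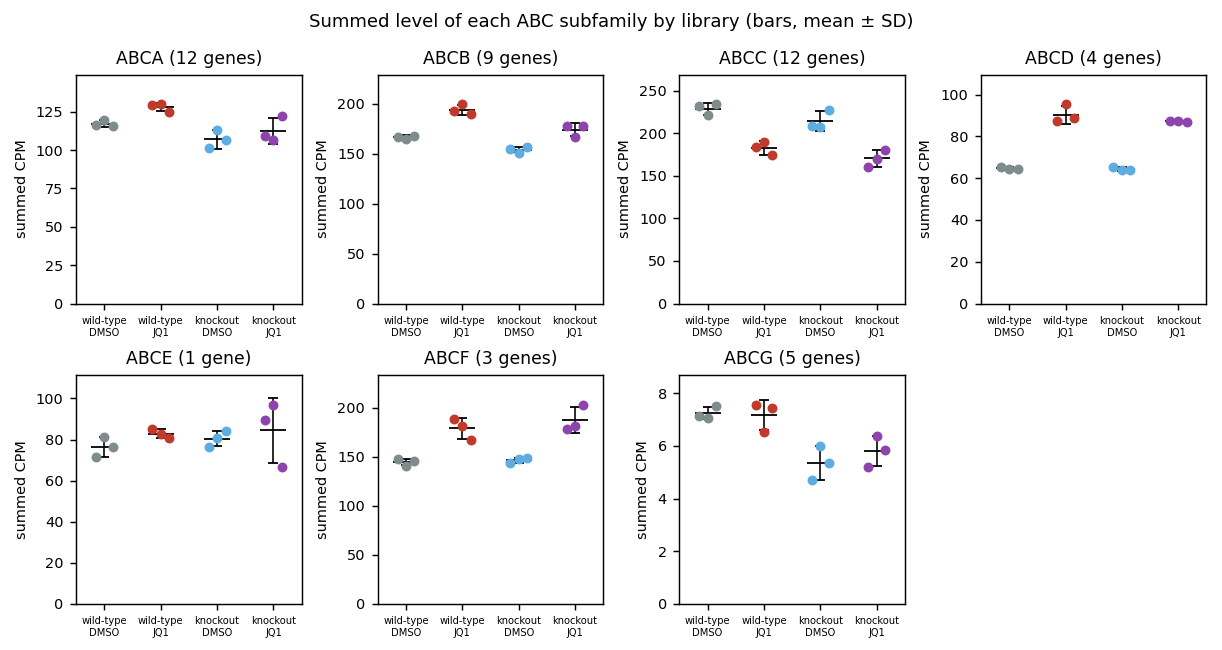
Summed CPM of all members of each ABC subfamily in each library (points), with group means and SD (bars); each vertical axis starts at 0. The JQ1 libraries of subfamily D lie above all DMSO libraries, those of subfamily C lie below them, and both knockout groups of subfamily G lie below the wild-type groups.

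A few ABC genes were lower in the MAPKAPK2 knockout, and 0 were higher past the threshold. Under DMSO, ABCA6, ABCA8, ABCB1, ABCB10 and ABCG2 were lower in knockout cells, 5 of 38 members or 13.2%, where 7.92% of all genes were called in either direction, 4.44% as lower and 3.47% as higher. At 5 CPM or more averaged over all 12 libraries, which leaves out the called ABCA6, ABCA8 and ABCG2, 2 of 22 members were called (9.09%), beside 10.4% of all such genes, a share near the background. By edgeR, 7 members had an unadjusted p under 0.05. The median log2 difference of the 38 members was -0.079, beside -0.0049 over all genes. Under JQ1, 7 members were lower in knockout and 0 higher, 18.4% beside 8.57% of all genes in either direction, 5.56% as lower and 3.01% as higher. At 5 CPM or more the shares were 22.7% and 11.5%. The 7 were ABCA1, ABCA8, ABCB1, ABCB10, ABCC2, ABCC4 and ABCG2, of which ABCA8 passed the filter only through wild-type DMSO.

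ABCA8 had the widest difference between the genotypes. The DMSO values above put every knockout library more than 10-fold below every wild-type library (21.9-fold between groups, log2 -4.45 ± 0.35, edgeR adjusted p = 4.58e-06). Under JQ1 it was at least 4.75-fold lower in knockout (16 counts against 0, edgeR adjusted p = 0.012). ABCA8 passed the filter on low counts only through wild-type DMSO. That group is the high side of the DMSO comparison and lies outside the comparison under JQ1. ABCA8 was filtered out when the JQ1 groups were fitted alone, so the p-value under JQ1 is weak support. ABCA6 lay 1.92-fold lower in knockout DMSO without overlap (log2 -0.94 ± 0.21, edgeR adjusted p = 0.011). By edgeR that call was lost with the authors' gene and library factors (log2 -0.68, adjusted p = 0.11). By edgeR it was also lost without the first wild-type DMSO library (adjusted p = 0.065) or the third knockout DMSO library (adjusted p = 0.062). Under JQ1, ABCA6 was near its floor in both genotypes (log2 -0.69 ± 0.63, edgeR adjusted p = 0.61). The comparisons of JQ1 with DMSO in wild type and of knockout with wild type in DMSO share the wild-type DMSO libraries. Nearby, SLC16A6 (log2 -1.21) and ARSG (log2 -0.58) were also lower in knockout DMSO, 25% of the 8 tested neighbours beside 4.44% of all genes called lower. The ARSG call was lost with the authors' factors (edgeR adjusted p = 0.094) and when any 1 of 4 libraries was left out, namely the second or the third of wild-type DMSO and the first or the third of knockout DMSO.

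Of the drug efflux genes ABCB1, ABCC1, ABCG2 and ABCB5, only ABCB1 and ABCG2 passed the test as lower in knockout cells. ABCB1 lay at 5.42 to 5.93 CPM in knockout DMSO against 8.96 to 9.07 CPM in wild-type DMSO, fully apart (1.58-fold, log2 -0.66 ± 0.13, edgeR adjusted p = 0.0039). Under JQ1 the difference was 1.37-fold (log2 -0.45 ± 0.12, edgeR adjusted p = 0.029). This call under JQ1 was lost without the third knockout JQ1 library (log2 -0.31, edgeR adjusted p = 0.062) and without 6 others left out singly, and when only the groups compared were fitted. ABCG2 measured 3.64, 3.61 and 3.27 CPM in wild-type DMSO and 1.89, 2.40 and 1.90 CPM in knockout DMSO. The knockout libraries lay below all wild-type libraries (1.70-fold, log2 -0.76 ± 0.16, edgeR adjusted p = 0.0061). Under JQ1 it was 2.04-fold lower (log2 -1.03 ± 0.16, edgeR adjusted p = 0.00083), from 3.42, 3.04 and 3.99 CPM to 1.60, 1.95 and 1.61 CPM. ABCC1 did not differ detectably between the genotypes (log2 -0.03 ± 0.11 in DMSO and 0.17 ± 0.11 in JQ1).

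ABCB10 was lower in knockout under both treatments with very small spread. It measured 54.4, 54.1 and 54.5 CPM in wild-type DMSO and 37.6, 35.6 and 37.5 CPM in knockout DMSO (1.47-fold, log2 -0.56 ± 0.05, edgeR adjusted p = 9.89e-06). Under JQ1 the difference was 1.34-fold (log2 -0.42 ± 0.05, edgeR adjusted p = 0.00012). ABCB10 lies on chromosome 1 beyond MAPKAPK2, at chr1:229516582-229558695, and is the only member beyond it on that chromosome. Reads of its pseudogenes may be shared with it: ABCB10P1, ABCB10P3 and ABCB10P4 had 14, 8 and 47 counts in wild-type DMSO and 1, 0 and 0 in knockout DMSO. Their part in the difference was not tested.

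Among the members lower in knockout under JQ1 alone, ABCA1 measured 58.8, 58.5 and 53.2 CPM in knockout JQ1, under all 3 wild-type JQ1 libraries (1.20-fold, log2 -0.26 ± 0.06, edgeR adjusted p = 0.0092). Under DMSO its difference was log2 -0.08 ± 0.06 and passed no test. ABCC4 was 1.22-fold lower (log2 -0.29 ± 0.07, edgeR adjusted p = 0.012) after log2 -0.13 ± 0.07 under DMSO. For neither gene did the interaction pass the test (edgeR adjusted p = 0.56 and 0.67). Both calls under JQ1 were lost when only the groups compared were fitted (edgeR adjusted p = 0.095 for ABCA1 and 0.077 for ABCC4). The ABCC4 call was also lost without the second wild-type JQ1 library (edgeR adjusted p = 0.052). Summed subfamily levels in knockout DMSO were 0.739 times those of wild type for G, where ABCG1 and ABCG2 dominate, and between 0.913 and 1.05 for the others.

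**Figure D5:**
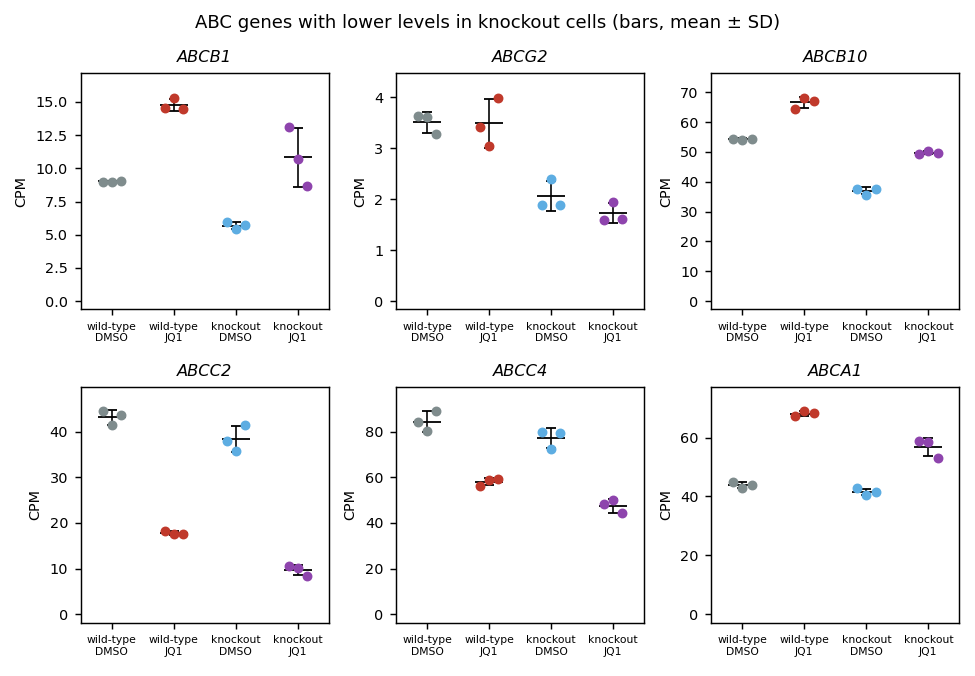
CPM of 6 ABC genes with lower levels in knockout cells in each library (points), with group means and SD (bars). ABCB1, ABCG2 and ABCB10 are lower in knockout cells under both treatments, whereas the genotypes of ABCC2, ABCC4 and ABCA1 lie further apart under JQ1 than under DMSO. Only for ABCC2 did the interaction pass the test.

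ABCC2 was the single ABC gene whose response to JQ1 differed between the genotypes by the interaction test. Its levels were 44.5, 41.3 and 43.7 CPM in wild-type DMSO and 38.0, 35.7 and 41.5 CPM in knockout DMSO, which overlap. JQ1 lowered it to 18.2, 17.6 and 17.5 CPM in wild type and to 10.6, 10.1 and 8.45 CPM in knockout. These 4 groups fall into 3 levels: both controls high, wild-type JQ1 in the middle, and knockout JQ1 lowest. The falls were 2.43-fold (log2 -1.28 ± 0.08, edgeR adjusted p = 4.58e-08) and 3.96-fold (log2 -1.99 ± 0.09, edgeR adjusted p = 8.74e-10). Under JQ1 the knockout was 1.83-fold lower (log2 -0.88 ± 0.09, edgeR adjusted p = 1.89e-05), and under DMSO log2 -0.17 ± 0.08 without passing the test.

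The interaction for ABCC2, the knockout response minus the wild-type response, was -0.71 ± 0.12 on the log2 scale (edgeR adjusted p = 0.032). It was 1 of 38 members, where 0.134% of all genes tested (29) passed, and 3 members had an unadjusted p under 0.05 by edgeR. The call was near the threshold: the adjusted p became 0.061 with library totals in place of TMM scaling, and 10 of the 12 analyses that left out a single library lost it. The exceptions were the first and the third knockout JQ1 library, so it did not rest on the library that stood apart. Over all alternatives the log2 difference stayed between -0.78 and -0.61.

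The stretch before the ABCC2 start is printed because of this difference. It lies at chr10:99782390-99782639 on the plus strand (RefSeq, GRCh38.p14), is 45.6% G and C with 1 CpG pair, and holds a TATA box match, in capitals, near its 5′ end.
ABCC2: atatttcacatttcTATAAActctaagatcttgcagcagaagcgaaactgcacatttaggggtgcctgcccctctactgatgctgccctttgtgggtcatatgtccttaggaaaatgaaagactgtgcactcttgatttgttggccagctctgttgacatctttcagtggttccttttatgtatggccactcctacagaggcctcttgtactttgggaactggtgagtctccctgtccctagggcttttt

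RefSeq windows of 250 bases before the start were found for 35 of the 46 members. An E-box, searched on both strands as CACGTG, was present in 4 of 35 (11.4%), beside 6.34% of all 35116 promoters in the table. A TATA box, searched on both strands by its letters TATAAA, was present in 5 (14.3%, beside 10.7%). A CCAAT box, whose name gives its letters and which was searched on both strands, was present in 6 (17.1%, beside 32%). A match describes the letters of a window and shows no binding. Median base composition differed by the direction of the JQ1 response, though single members crossed this pattern. The window of ABCB1, which rose, held 39.2% G and C, and that of ABCC4, which fell, 80.4%. Members without a call in wild type had a median of 59%, with 4 of 12 under 50%. The members that rose in wild type had a median of 69.6% G and C in this window (12 with a window, 1 of them under 50%), and those that fell 47.2% (6 with a window, 4 of them under 50%). Over all genes tested the medians were 67.6% and 62%, with 6.05% and 19.6% under 50%. Transcripts differed likewise, with medians of 58.7% and 42.6% G and C in members that rose and fell, and 51.8% and 46.1% over all genes. An alternative with a term for transcript base composition called 24 members in each genotype, 22 and 23 of them shared with the main analysis.

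The superfamily genes with other symbols gave small changes. TAP1 and TAP2, which together form the peptide pump that supplies MHC class I, went in opposite directions: TAP1 rose (log2 0.38 in wild type and 0.21 in knockout) and TAP2 fell (log2 -0.28 in both), by edgeR adjusted p of 0.001, 0.035, 0.021 and 0.021. The TAP1 call in knockout was lost without the third knockout JQ1 library (log2 0.17, edgeR adjusted p = 0.086), with library totals (log2 0.098) and under 9 other alternatives, and the TAP2 calls each under 5 of 22 alternatives. TAPBP, their docking partner, fell by 0.34 and 0.32 on the log2 scale. CFTR had 0 counts in every library.

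Of 33 listed regulators and partners of ABC transporters, 29 were tested. JQ1 raised 5 and lowered 6 in wild type, and raised 4 and lowered 10 in knockout, 37.9% and 48.3% beside the backgrounds of 33.1% and 34.4%. Their median log2 change was 0.0039 in wild type, beside -0.034 over all genes. The liver X receptors, which switch on ABCA1 and ABCG1, split: NR1H2 rose (log2 0.52 in wild type and 0.49 in knockout) and NR1H3 fell (log2 -0.79 and -1.01). SREBF2, the master factor of cholesterol synthesis, fell (log2 -0.48 and -0.57). APOE, a lipid acceptor, fell from 2.82 ± 0.36 CPM to 0.982 ± 0.18 CPM in wild type (log2 -1.53, edgeR adjusted p = 0.00016) and by 1.46 in knockout. NPC2, which hands cholesterol out of lysosomes, rose (log2 0.57 and 0.67). Between the genotypes, MITF (log2 -0.58) and AHR (log2 -0.29) were lower in knockout DMSO, 6.9% of the 29 beside 7.92% of all genes, and MITF alone under JQ1 (log2 -0.37). The AHR call was lost without the first or the second wild-type DMSO library or the third knockout DMSO library and with the correction for base composition, and the MITF call under JQ1 with only the groups compared (edgeR adjusted p = 0.053). The summed fibroblast markers, 5 genes led by PDGFRB and LUM, were lower with JQ1, as were ABCA6 and ABCA8. They went from 15.8 to 17.4 CPM in wild-type DMSO to 4.73 to 5.75 CPM in JQ1. In knockout they went from 12.8 to 14.4 CPM to 3.29 to 4.02 CPM, with COL1A2 at 0 in every library but those of wild-type DMSO. The keratinocyte, leukocyte and endothelial sums were lower in wild-type JQ1 too. Keratinocyte markers went from 1.55 to 2.28 CPM to 0.562 to 1.11 CPM. Leukocyte markers went from 3.55 to 3.65 CPM to 1.73 to 1.98 CPM, and endothelial markers from 1.95 to 2.35 CPM to 1.13 to 1.30 CPM. In knockout the endothelial ranges overlapped, at 1.22 to 1.93 CPM in DMSO and 0.812 to 1.64 CPM in JQ1. The summed 12 melanocyte and melanoma markers were instead higher with JQ1. They went from 971 to 1015 CPM to 1187 to 1361 CPM in wild type, and from 896 to 1033 CPM to 1126 to 1506 CPM in knockout. The part of these markers in the results was not tested.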

How the data were processed

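Total RNA of A375 cells was depleted of ribosomal RNA and sequenced from directional libraries, per the labels' protocols. The deposited table holds estimated counts per gene symbol, which the authors made with kallisto after trimming with Trim Galore and cutadapt, on build GRCh38.p10, per the submitters' processing notes. The counts entered the fits as whole numbers, after a rounding step. The annotation, the program versions and the use of strand in counting are not given in the sources used here. The deposited normalized table, a signal that the authors scaled by gene and library (DESeq2, per the submitters' processing notes), served only for an alternative scaling.

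The symbols were matched to GENCODE 29 for positions, transcript lengths and base composition, and to RefSeq (GRCh38.p14) for promoters. Counts were filtered with filterByExpr (minimum count 10), scaled by TMM (factors 0.926 to 1.06) and fitted over all 12 libraries and 21698 genes with edgeR 4.0.16's quasi-likelihood test, 1 mean per group, with Benjamini-Hochberg adjustment over all genes and a threshold of 0.05. CPM use TMM-scaled library sizes, and fold changes a prior count of 0.125. Totals of 25316565 to 34594025 counts put the limit that 3 counts over a group allow near 0.03 CPM; intervals and limits cover counting error only. The edgeR script was tested on simulated counts.

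The members and gene lists were chosen with earlier results of these data known. The chromosome 17 genes, ABCB1, ABCC1, ABCG2, ABCA1, ABCG1 and ABCB5 are named in every comparison. Up to 5 rises and 5 falls per comparison among called members at 0.5 CPM or more without overlap, and up to 4 genes per list, were added. Other members and neighbours, the printed promoters and list genes beyond these, were chosen after their values were seen. Same-numbered libraries did not visibly deviate together (0 of 18 correlations over 0.1), so the numbers were not used as pairs in the main fit. Whether same-numbered libraries were handled together stays unknown. Alternatives were other scalings, DESeq2 1.42.0, other filters, fits of the compared groups alone, a replicate block, a threshold of 0.01, leaving out each library, and, chosen after seeing the data, a correction for base composition. Results of 2 members are not reported here singly, though counts and sums over the family include them.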

Additional observations from a re-analysis of the deposited data

Results flagged for a closer look

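ABCC2 drew attention because its response to JQ1 differed between wild-type and knockout cells by a test of the difference itself: the knockout response minus the wild-type response was -0.71 on the log2 scale (edgeR adjusted p = 0.032). The call was near the threshold and was lost under 13 of the 21 alternatives that cover it. The cause of the difference was not tested.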

How the results depend on the processing

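Over 22 alternatives, 51 of the 66 called changes of named genes kept their call under every one but the threshold of 0.01, and 0 of the 66 turned direction. Members lower in knockout under JQ1 numbered 3 with only the groups compared (ABCB1, ABCC4 and ABCA1 lost their calls and ABCA8 was filtered out) and 4 at an adjusted p of 0.01. The interaction count of 1 became 0 with library totals, with the replicate block (adjusted p of ABCC2 0.083) and at 0.01, and lay between 0 and 1 when single libraries were left out. The block changed no other count by over 1.5 times, and 1 of 12 libraries correlated best with its own number. Leaving out single libraries gave 19 to 25 members for JQ1 in wild type, 19 to 25 in knockout, 4 to 6 for knockout in DMSO and 5 to 9 in JQ1. The cause was not tested for any of these changes.

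With library totals the summed ratios of JQ1 to DMSO in wild type became 1.00 for A, 1.06 for B, 0.730 for C, 1.28 for D, 0.992 for E, 1.13 for F and 0.907 for G. In knockout they became 1.04 for B, 1.25 for D and 1.18 for F. The knockout to wild-type ratios in DMSO became 0.895 for B, 0.962 for D and 0.980 for F, and that of B lay between 0.921 and 0.944 without single libraries.

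Sign changes occurred in 16 comparisons, none of them called (log2 values). In wild-type JQ1, ABCG2 gave 0.011 with DESeq2 size factors, 0.011 with the authors' factors, 0.021 with DESeq2, 0.0081 without a filter, 0.018 with only the groups compared and 0.085 with the correction for base composition, which gave 0.0088 for ABCA10. Library totals gave -0.012 for ABCG1 and -0.048 for ABCB5 there, and -0.018 for ABCC1 in knockout JQ1. The authors' factors gave 0.10 for ABCB5 in knockout DMSO. The TAP2 interaction became -0.0062 with DESeq2 size factors, -0.058 with the authors' factors, -0.017 with DESeq2, -0.015 without a filter and -0.023 with the correction for base composition.

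Without single libraries, the wild-type JQ1 values ranged from -0.80 to 0.49 for ABCA10, -0.11 to 0.085 for ABCG2 and -0.38 to 0.31 for ABCB5. In knockout JQ1 they ranged from -0.18 to 0.058 for ABCA9, -0.037 to 0.20 for ABCC1 and -0.46 to 0.091 for ABCB5. For knockout in DMSO the ranges were -0.30 to 1.40 for ABCA10, -0.093 to 0.071 for ABCC1 and -0.48 to 0.079 for ABCB5, and under JQ1 -0.10 to 0.34 for ABCA9 and -0.020 to 0.15 for TAP2. Interactions ranged from -0.67 to 0.25 for ABCA5, -0.13 to 0.56 for ABCA6, -0.57 to 0.11 for ABCB5 and -0.095 to 0.070 for TAP2. Members under 1 CPM rest on few counts, which limits their precision.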
